A study of Homo sapiens with 29 samples.

Results

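The genes described here make up the human major histocompatibility complex (MHC) class I molecule and the machinery that loads it. They are the heavy chains HLA-B, HLA-C, HLA-E and HLA-F, the light chain B2M, the peptide transporter subunits TAP1 and TAP2, the loading factor TAPBP and the transcriptional activator NLRC5. They were chosen by name, as the rows of the gene-level count table whose Ensembl identifiers map to these symbols on the primary assembly. All 9 had a row among the 58302 genes of the table, and 8 of them passed the low-count filter that left 13495 genes for testing. HLA-F did not pass it and is described by its counts.

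The study measured 29 libraries of human tumours grown in the mammary tissue of SCID-beige mice, which have no mature T or B cells. They were grown from the triple-negative line MDA-MB-231, called parental here, or from its paclitaxel-resistant derivative, called resistant (paclitaxel stabilises microtubules). The study asked if expression changes that go with DNA methylation are tied to drug resistance, and if decitabine can undo these changes. Every mouse was injected on both sides, and all groups share the SCID-beige host and 26 days of treatment given as 2 cycles of 12 days with 2 rest days between them.

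Parental tumours grew from 250000 cells and were treated from day 6, in groups that received vehicle (4 libraries), decitabine at 0.4 mg/kg (4), doxorubicin at 1 mg/kg (3) or the combination of both at these doses (4). Resistant tumours grew from 1500000 cells and were treated from day 16, with vehicle (4), decitabine (3), doxorubicin (4) or the combination (3) at the same doses. Decitabine is a cytidine analogue that traps DNA methyltransferases, and doxorubicin is an anthracycline that poisons topoisomerase II. The line cannot be told apart from the number of injected cells and the starting day. The resistant line is a single derivative, and whether it is 1 clone is not stated. The protocol gives 4 mice per group, and no label says which mouse a library came from. The p-values therefore measure the spread between libraries, some of which may share a mouse.

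MHC class I molecules carry short peptides from inside the cell to its surface. A heavy chain folds with B2M in the endoplasmic reticulum, TAP1 and TAP2 together pump peptides from the cytosol into that compartment, and TAPBP (tapasin) holds the empty molecule next to the transporter until a peptide fits. CD8 T cells read the peptides on HLA-B and HLA-C, and natural killer cells read HLA-C and HLA-E through inhibitory and activating receptors. Interferons raise most of these genes, and NLRC5 drives several of their promoters, not all, through a shared SXY module. Loss of class I expression is a known route of immune escape in breast and other carcinomas.

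On GRCh38 with GENCODE release 29, 7 of the 9 genes lie in the MHC on chromosome 6: HLA-F (ENSG00000204642, 29722775 to 29738528), HLA-E (ENSG00000204592, 30489467 to 30494205), HLA-C (ENSG00000204525, 31268749 to 31272130), HLA-B (ENSG00000234745, 31269491 to 31357188), TAP2 (ENSG00000204267, 32821833 to 32838780), TAP1 (ENSG00000168394, 32845209 to 32853978) and TAPBP (ENSG00000231925, 33299694 to 33314387). B2M (ENSG00000166710) is on chromosome 15 at 44711487 to 44718877, and NLRC5 (ENSG00000140853) is on chromosome 16 at 56989485 to 57083531. In that annotation HLA-B and HLA-C share 35 exon bases on the same strand. TAP2 shares 2064 of its 6390 exon bases with AL669918.1 on the same strand, which is 32.3%, so its counts depend on how shared reads were treated. HLA heavy chains also resemble each other closely and vary between people, and reads that fit several of them may have been split or dropped.

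The promoters of the 3 members that rose with decitabine on average (HLA-B, HLA-C and TAP1) and of TAPBP, whose levels followed a different order over the groups, are shown so that members with and without such a call can be set side by side. Each is the RefSeq sequence on GRCh38.p14 from 250 bases before to 50 bases after the start, read 5′ to 3′ on the gene's own strand (minus for all 4): HLA-B at chr6:31357130-31357429, HLA-C at chr6:31272043-31272342, TAP1 at chr6:32853655-32853954 and TAPBP at chr6:33314029-33314328. Capitals mark matches on either strand to the core of the interferon-stimulated response element (GAAA, any 2 bases, GAAA), to GAANNGAAA (a pair of IRF half-sites with a spacing that is shorter by a base), the NF-kB consensus, CCAAT and TGACG (the core of the cAMP response element).
HLA-B: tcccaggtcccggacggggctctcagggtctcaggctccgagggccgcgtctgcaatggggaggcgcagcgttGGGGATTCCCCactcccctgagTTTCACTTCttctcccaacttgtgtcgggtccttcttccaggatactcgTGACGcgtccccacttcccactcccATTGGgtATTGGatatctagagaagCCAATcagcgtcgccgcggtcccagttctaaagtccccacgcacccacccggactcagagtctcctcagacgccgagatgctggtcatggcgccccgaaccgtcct
HLA-C: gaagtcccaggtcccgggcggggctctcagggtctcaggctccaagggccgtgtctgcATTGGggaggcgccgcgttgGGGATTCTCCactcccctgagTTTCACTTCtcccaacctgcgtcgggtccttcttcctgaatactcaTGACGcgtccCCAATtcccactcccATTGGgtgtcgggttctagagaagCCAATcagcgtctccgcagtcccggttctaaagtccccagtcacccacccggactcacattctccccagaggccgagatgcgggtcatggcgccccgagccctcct
TAP1: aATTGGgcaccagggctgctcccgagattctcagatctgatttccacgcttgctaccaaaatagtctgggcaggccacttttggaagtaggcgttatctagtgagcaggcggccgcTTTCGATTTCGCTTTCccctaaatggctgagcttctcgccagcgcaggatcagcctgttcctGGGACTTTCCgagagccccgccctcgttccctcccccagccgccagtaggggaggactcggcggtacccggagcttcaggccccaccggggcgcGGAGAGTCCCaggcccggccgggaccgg
TAPBP: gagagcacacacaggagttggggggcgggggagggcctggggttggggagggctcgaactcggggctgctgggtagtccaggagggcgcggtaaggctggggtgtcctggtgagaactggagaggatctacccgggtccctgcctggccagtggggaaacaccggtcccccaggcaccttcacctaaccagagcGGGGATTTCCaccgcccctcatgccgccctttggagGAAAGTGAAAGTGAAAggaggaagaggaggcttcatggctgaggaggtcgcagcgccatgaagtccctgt

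In these windows HLA-B and HLA-C each held 1 match to GAANNGAAA, which starts 155 and 151 bases before the start, and none to the response element core. TAP1 and TAPBP each held 2 overlapping matches to that core, and B2M, TAP2 and HLA-F also held this longer form. All 4 printed promoters held the NF-kB consensus, and the 2 matches in HLA-B overlap each other. The response element core was found in 3.6% of 35116 promoters of this length, GAANNGAAA in 7.7%, the NF-kB consensus in 11.3%, CCAAT in 34.6% and TGACG in 24.6%. The form GAANNGAAA was added after the HLA-B sequence had been read, so its presence there carries no weight. The printed promoters of HLA-B, HLA-C, TAP1 and TAPBP held 22, 19, 22 and 12 CG pairs, the targets of DNA methylation, against a median of 14 over all promoters. Those of B2M, TAP2 and HLA-F held 22, 24 and 17. A second TAP1 entry, not printed, held 11 CG pairs and none of the motifs. A match describes the letters only, and methylation and binding were not measured. The promoter table held 7 of the 9 genes, and HLA-E and NLRC5 were the others.

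The libraries held 3398261 to 5382295 counts, and the 9 genes made up 0.367 to 0.699% of them. Parental vehicle 3 and resistant decitabine 2 stood apart from their groups across all genes, and results that rest on them are also given without them. The defining lymphocyte markers CD3E and MS4A1 had 0 counts, which allows up to 0.0225 CPM (counts scaled to a common library size) over all libraries. Of 16 leukocyte markers, 10 did not pass the low-count filter. The 6 that passed it were, by mean level, CD68 (24.4 CPM), PTPRC (3.43), CD8A (2.38), CSF1R (1.59), FCER1G (1.09) and AIF1 (1.08). The tumour line's own genes VIM and CD44 stood at 2347 and 718 CPM on average, and the oestrogen and progesterone receptor genes ESR1 and PGR had 97 and 1 counts in all 29 libraries. Reads of the mouse host that align to human genes would be counted here, and the treatment of mouse reads is not given in the sources used here.

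Levels are given as CPM, the counts relative to the scaled library size. Each count is a tag from near the 3′ end of a transcript, so levels of different genes can be set side by side without a length correction, apart from differences in how well each gene is captured. B2M was the most abundant member, with a mean of 3615 CPM over the 29 libraries and 484412 counts in all. HLA-B followed at 759 CPM, then TAPBP at 212, HLA-C at 202, HLA-E at 194, TAP2 at 33.8, NLRC5 at 23.7 and TAP1 at 19.4 CPM. Relative to their means, B2M varied least over the libraries (coefficient of variation 14.9%) and HLA-B most among the 8 genes tested (34.4%). In bulk tumours, fewer cells that express a gene and less RNA of it per cell cannot be told apart.

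**Figure D1:**
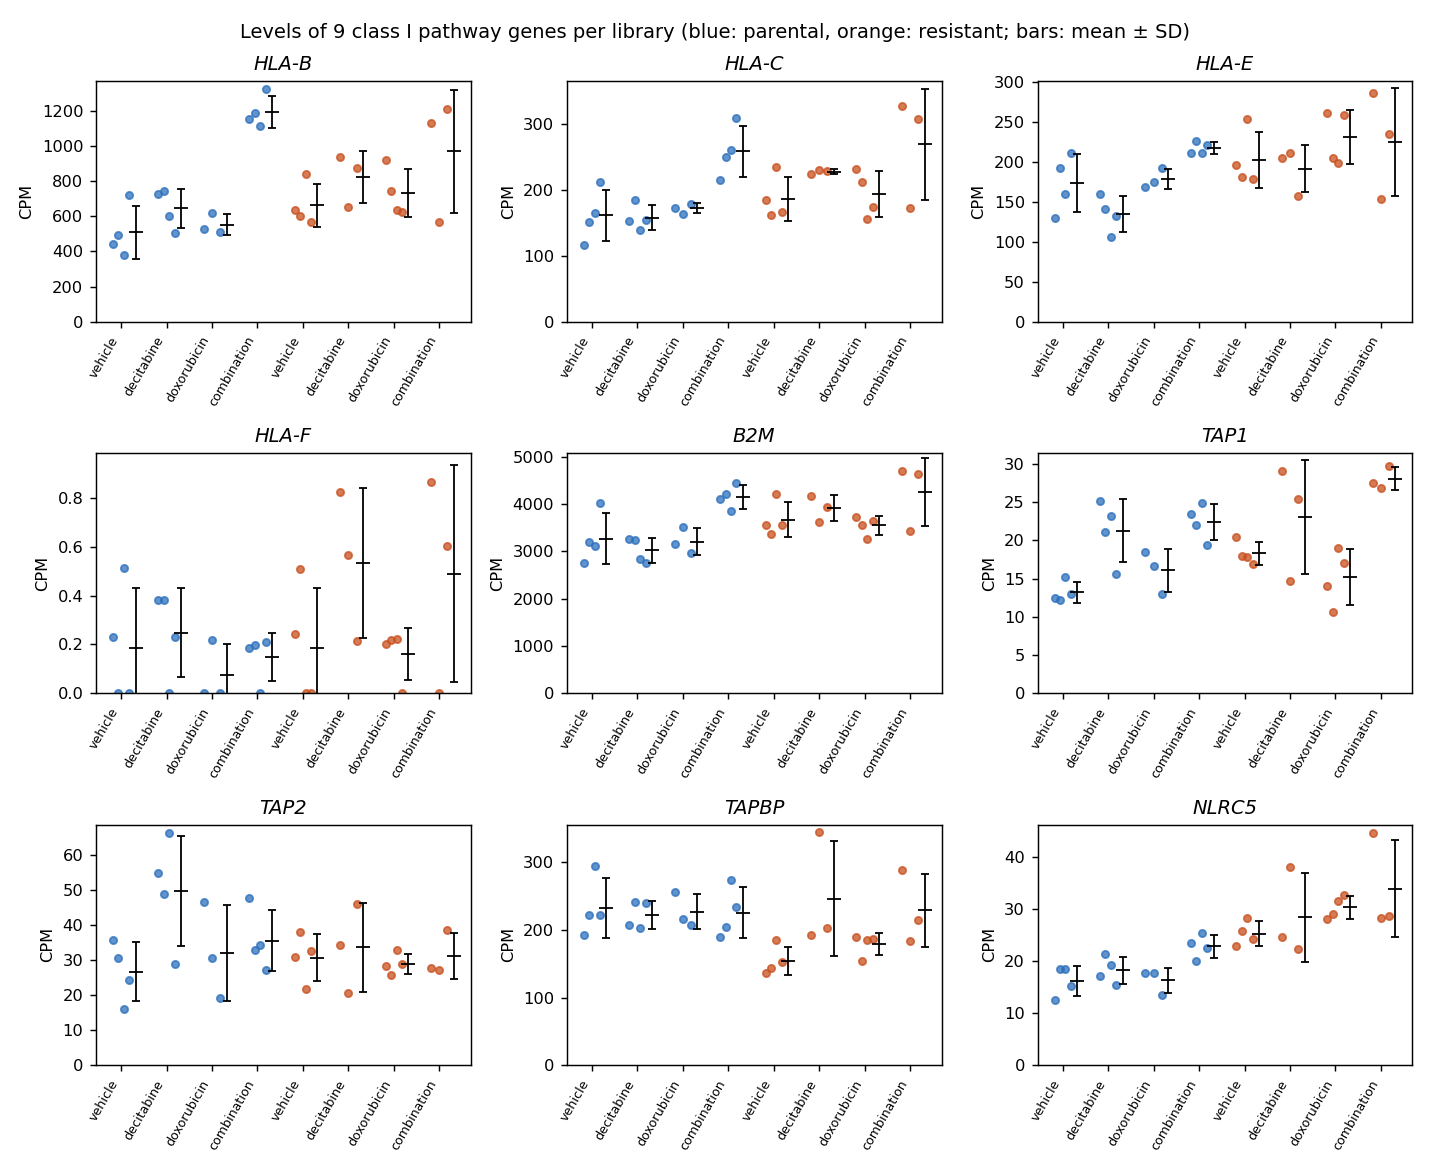
Levels of the 9 genes in CPM (linear axes from 0) in each of the 8 groups, with a point per library and the mean ± SD beside it, for parental (blue) and resistant (orange) tumours. The 4 parental combination libraries of HLA-B sit at 1118 CPM or more, and NLRC5 is higher in resistant than in parental libraries within each treatment.

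Among the heavy chains, HLA-B presents peptides to CD8 T cells. In parental tumours, vehicle libraries held 440.02, 496, 378 and 722 CPM and decitabine libraries 727, 747, 603 and 506 CPM. Doxorubicin libraries held 528, 619 and 511 CPM and combination libraries 1155, 1187, 1118 and 1324 CPM. The combination libraries were thus above every other parental library, while the other 3 parental groups overlapped. In resistant tumours, HLA-B stood at 639, 604, 841 and 567 CPM with vehicle, 938, 655 and 878 with decitabine, 919, 745, 638 and 623 with doxorubicin, and 1133, 570.4 and 1209.8 CPM with the combination. All 4 resistant groups overlapped, and resistant combination 2 was the low library of its group. Ordered by mean, HLA-B ran from parental vehicle (509 ± 150 CPM, SD, n = 4) to parental combination (1196 ± 89.7 CPM, SD, n = 4), and each of the 7 neighbouring pairs of groups in this order overlapped.

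HLA-C is read by T cells and by killer-cell receptors. It stood at 117, 152, 166 and 212 CPM in parental vehicle libraries, 153, 186, 139.8 and 155 with decitabine, 174, 164 and 179 with doxorubicin, and 216, 250.1, 261 and 310.4 CPM with the combination. In resistant tumours it stood at 184, 162, 235 and 167 CPM with vehicle, 224, 231 and 229 with decitabine, 232, 213, 156 and 175 with doxorubicin, and 328, 173 and 308 CPM with the combination. The parental combination libraries were the highest of their line, and the lowest of them overlapped no other parental library.

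HLA-E presents leader peptides of other class I chains to the NKG2A receptor of natural killer cells. Its parental vehicle libraries held 129.6, 193, 160.0 and 211 CPM, decitabine libraries 159.9, 142, 105 and 132, doxorubicin libraries 169, 175 and 193, and combination libraries 212, 226, 211 and 222 CPM. The resistant libraries ranged from 153 to 286 CPM, with group means between 191 ± 29.3 (decitabine, SD, n = 3) and 231 ± 33.8 CPM (doxorubicin, SD, n = 4). Parental decitabine was the lowest of the 8 group means, at 135 ± 22.7 CPM (SD, n = 4).

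B2M ran from 3026 ± 260.02 CPM in parental decitabine (SD, n = 4) to 4258 ± 715 CPM in resistant combination tumours (SD, n = 3), a ratio of 1.41. In parental tumours the 4 combination libraries, at 3848 to 4451 CPM, lay above all decitabine libraries (2757 to 3254 CPM), and 1 vehicle library reached 4017 CPM.

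The transporter subunits did not follow the heavy chains or each other throughout. TAP1 stood at 12.5, 12.2, 15.2 and 13.003 CPM in parental vehicle libraries, 25.1, 21.1, 23.2 and 15.6 with decitabine, 18.5, 16.7 and 13.03 with doxorubicin, and 23.5, 22.0, 24.8 and 19.4 CPM with the combination. Both decitabine-treated parental groups lay above all parental vehicle libraries. In resistant tumours TAP1 stood at 20.4, 17.99, 17.9 and 16.9 CPM with vehicle, 28.98, 14.7 and 25.3 with decitabine, 14.02, 10.7, 19.0 and 17.1 with doxorubicin, and 27.5, 26.8 and 29.7 CPM with the combination. The resistant combination libraries did not overlap the vehicle or doxorubicin libraries, and resistant decitabine 2 was the low library of its group. TAP2 was highest on average in parental decitabine tumours (49.8 ± 15.6 CPM, SD, n = 4) and lowest in parental vehicle tumours (26.8 ± 8.49 CPM, SD, n = 4), with ranges that overlapped (29.01 to 66.3 and 16.2 to 35.9 CPM).

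TAPBP stood at 192, 221, 295 and 222 CPM in parental vehicle libraries and 136, 143, 185 and 152 CPM in resistant vehicle libraries, which did not overlap. Resistant decitabine libraries held 192, 345 and 202 CPM, and the library at 345 CPM, resistant decitabine 2, was the highest of all 29. The other parental groups had means of 223 to 227 CPM. NLRC5 stood at 12.5, 18.5, 18.5 and 15.3 CPM in parental vehicle, 17.1, 21.3, 19.3 and 15.3 in parental decitabine, 17.7, 17.8 and 13.6 in parental doxorubicin, and 23.5, 20.04, 25.4 and 22.5 CPM in parental combination libraries. In resistant tumours it stood at 22.8, 25.8, 28.3 and 24.2 CPM with vehicle, 24.7, 38.1 and 22.4 with decitabine, 28.04, 28.98, 31.5 and 32.6 with doxorubicin, and 44.6, 28.3 and 28.7 CPM with the combination. Within each of the 4 treatments, every resistant library lay above every parental one.

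Averaged over both lines and over tumours with and without doxorubicin, decitabine raised HLA-B, HLA-C and TAP1. These were 3 of the 8 genes tested, and none fell, where 6.8% of all genes tested were called in either direction at an adjusted p under 0.05 and 3.96% were higher. TAP1 ran from 14.7 to 29.7 CPM (median 24.1) in the 14 libraries with decitabine and from 10.7 to 20.4 CPM (median 16.7) in the 15 without. Its log2 fold change was 0.60 (SE 0.10, edgeR quasi-likelihood test with Benjamini-Hochberg adjustment, adjusted p = 0.000181). HLA-B ran from 506 to 1324 CPM (median 908) with and from 378 to 919 CPM (median 619) without decitabine, a log2 fold change of 0.55 (SE 0.11, adjusted p = 0.0017). HLA-C ran from 139.8 to 328 CPM (median 227) with and from 117 to 235 CPM (median 174) without it, a log2 fold change of 0.33 (SE 0.09, adjusted p = 0.0272). The ranges overlapped for all 3 genes. In parental tumours HLA-C had a log2 fold change of -0.03 with decitabine alone and 0.59 with decitabine added to doxorubicin. In resistant tumours these were 0.29 and 0.48. For HLA-B they were 0.34 and 1.11 in parental and 0.31 and 0.41 in resistant tumours. For TAP1 they were 0.69 and 0.47 in parental and 0.34 and 0.88 in resistant tumours. Of these, only the 1.11 of HLA-B and the 0.88 of TAP1 were called.

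The other 5 did not pass the threshold. Their log2 fold changes under decitabine were 0.32 for TAP2 (adjusted p = 0.204), 0.24 for TAPBP (adjusted p = 0.102), 0.24 for NLRC5 (adjusted p = 0.108), 0.15 for B2M (adjusted p = 0.142) and -0.05 for HLA-E (adjusted p = 0.818). The median over the 8 members was 0.28, against -0.01 over all genes tested. HLA-C no longer passed without parental doxorubicin 2, resistant combination 1 or resistant combination 3 (adjusted p from 0.0529 to 0.065). Without parental vehicle 3 and resistant decitabine 2, the same 3 genes were called.

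**Figure D2:**
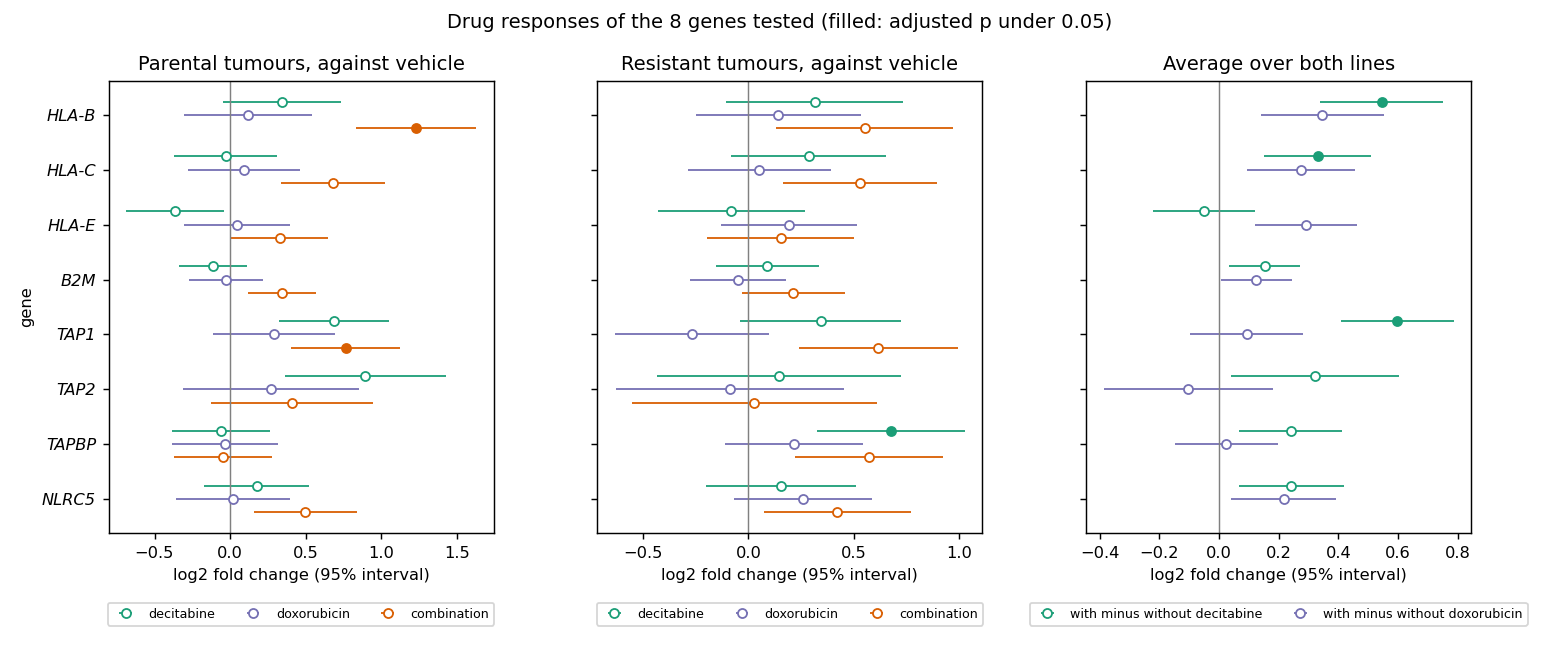
Fitted log2 fold changes of the 8 genes tested (points) with 95% intervals (lines), against vehicle in parental tumours (left) and resistant tumours (middle), and averaged over both lines (right). Filled points have an adjusted p under 0.05: HLA-B and TAP1 under the combination in parental tumours, TAPBP under decitabine in resistant tumours, and HLA-B, HLA-C and TAP1 under decitabine on average.

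In parental tumours the combination raised HLA-B and TAP1. HLA-B rose from 509 ± 150 to 1196 ± 89.7 CPM (SD, n = 4 and 4), a log2 fold change of 1.23 (SE 0.20, edgeR adjusted p = 0.00173), and this was called in each of the 8 fits that left out a library. For TAP1 the means were 13.2 ± 1.35 CPM with vehicle and 22.4 ± 2.33 CPM with the combination (log2 fold change 0.76, SE 0.19, adjusted p = 0.0356), and it passed in only 1 of the 8 fits that left out a library (adjusted p from 0.0483 to 0.108). These were 2 of 8 members, both higher, where 1.03% of all genes tested were called in either direction and 0.645% were higher. HLA-C had a log2 fold change of 0.68 (SE 0.17, adjusted p = 0.0504), B2M 0.34 (adjusted p = 0.126), NLRC5 0.50 (adjusted p = 0.136), TAP2 0.41 (adjusted p = 0.42), HLA-E 0.33 (adjusted p = 0.291) and TAPBP -0.04 (adjusted p = 0.904). The summed level of 5 endothelial markers was 17.9 to 22.0 CPM in these combination libraries and 11.0 to 17.0 CPM in the vehicle libraries. That of 7 fibroblast markers was 357 to 770 CPM against 798 to 1241 CPM, and that of 16 leukocyte markers overlapped, at 25.3 to 44.2 and 26.7 to 44.2 CPM. Most of each sum came from 1 gene. By mean level over all libraries these were PECAM1 (11.8 CPM, endothelial), COL1A1 (740 CPM, fibroblast) and CD68 (24.4 CPM, leukocyte). The part of endothelial cells, fibroblasts and leukocytes in the result was not tested.

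Of the pathway lists described further on, the combination raised PSMB9, an immunoproteasome subunit (log2 0.89, SE 0.22, edgeR adjusted p = 0.0382), and the interferon-stimulated genes IFIT2 (1.17, SE 0.21, adjusted p = 0.00396) and IFIT3 (1.02, SE 0.20, adjusted p = 0.00968) in parental tumours. These were 1 of 9 proteasome genes and 2 of 19 interferon-stimulated genes. Of all genes tested, 1.03% were called in either direction and 0.645% were higher.

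Neither drug alone gave a call among the members in parental tumours. With decitabine alone, 1.67% of all genes tested were called and 0 of 8 members by edgeR, with 3 members at an unadjusted p under 0.05. TAP1 had a log2 fold change of 0.69 (SE 0.19, adjusted p = 0.0516), TAP2 0.89 (SE 0.27, adjusted p = 0.0774) and HLA-E -0.36 (SE 0.17, adjusted p = 0.227). DESeq2 called 2 members there, TAP1 and TAP2. With doxorubicin alone, 0.23% of all genes tested were called and 0 of 8 members by edgeR, with 0 at an unadjusted p under 0.05 and 0 by DESeq2. The log2 fold changes ran from -0.04 (TAPBP) to 0.29 (TAP1).

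When decitabine was added to doxorubicin in parental tumours, HLA-B rose from 553 ± 58.4 to 1196 ± 89.7 CPM (n = 3 and 4), a log2 fold change of 1.11 (SE 0.22, edgeR adjusted p = 0.0183). It was 1 of 8 members, where 0.304% of all genes tested were called. The call was lost in 5 of the 7 fits that left out a library (adjusted p up to 0.14), while the log2 fold change stayed between 1.05 and 1.19. HLA-C had 0.59 (adjusted p = 0.234) and TAP1 0.47 (adjusted p = 0.345).

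When doxorubicin was added to decitabine in parental tumours, a comparison made after the values had been seen, all 3 abundant heavy chains and B2M rose. HLA-B rose by a log2 fold change of 0.89 (SE 0.20, adjusted p = 0.00917), HLA-C by 0.71 (SE 0.17, adjusted p = 0.0147), HLA-E by 0.69 (SE 0.17, adjusted p = 0.0129) and B2M by 0.46 (SE 0.12, adjusted p = 0.0181). For these 4 genes the combination libraries did not overlap the decitabine libraries. The summed level of the 5 endothelial markers did not overlap either, at 17.9 to 22.0 CPM with the combination and 12.8 to 16.3 CPM with decitabine alone, and the median log2 fold change of the 5 fibroblast markers tested was -0.86, with none called. The part of these cells in the result was not tested. They were 4 of 8 members, where 6.63% of all genes tested were called in either direction and 2.73% were higher. TAP1 (log2 0.07, adjusted p = 0.846), TAP2 (-0.49, adjusted p = 0.272), TAPBP (0.02, adjusted p = 0.965) and NLRC5 (0.32, adjusted p = 0.256) did not pass. None of the 4 was called without parental decitabine 3, which was the lowest library of its group for HLA-C and HLA-E. Without parental combination 4, 2 of them were called. B2M was called in only 4 of the 8 fits that left out a library. It was also lost without parental decitabine 4 or parental combination 2 (edgeR adjusted p = 0.0695 and 0.0598).

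Whether the parental combination exceeded the sum of the single drugs was tested as an interaction, also added after the values had been seen. In edgeR 0 of 8 members were called, where 0.00741% of all genes tested were called, and 4 members had an unadjusted p under 0.05. The interaction was 0.77 for HLA-B (SE 0.30, adjusted p = 0.315), 0.62 for HLA-C (SE 0.26, adjusted p = 0.346), 0.65 for HLA-E (SE 0.24, adjusted p = 0.305) and 0.48 for B2M (SE 0.17, adjusted p = 0.266) on the log2 scale. DESeq2 called 0 members, and edgeR without the low-count filter called HLA-B.

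In resistant tumours decitabine alone raised TAPBP, from 154 ± 21.4 to 246 ± 85.5 CPM (SD, n = 4 and 3), a log2 fold change of 0.68 (SE 0.18, edgeR adjusted p = 0.0334). It was 1 of 8 members, where 3.33% of all genes tested were called. The call rests on resistant decitabine 2: without that library the log2 fold change was 0.36 (adjusted p = 0.427). It was also lost without resistant vehicle 1, 2 or 4 (adjusted p from 0.074 to 0.0943). The summed level of the 5 endothelial markers was 15.3 to 17.5 CPM in the resistant decitabine libraries, 17.1 to 32.4 CPM in the resistant combination libraries and 7.91 to 10.4 CPM in the resistant vehicle libraries, and its part in the results was not tested. The next members by size were TAP1 (log2 0.34, adjusted p = 0.329) and HLA-B (0.31, adjusted p = 0.423).

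Under the combination in resistant tumours edgeR called 0 of 8 members, where 1.13% of all genes tested were called. The log2 fold changes ran from 0.03 for TAP2 (95% interval -0.55 to 0.61) to 0.62 for TAP1, and those of TAP2 and HLA-E crossed 0 when single libraries were left out. DESeq2 also called 0, and 5 members had an unadjusted p under 0.05: TAP1 (adjusted p = 0.119), TAPBP (0.57, adjusted p = 0.119), HLA-C (0.53, adjusted p = 0.172), HLA-B (0.55, adjusted p = 0.217) and NLRC5 (0.42, adjusted p = 0.255). Without resistant combination 2, HLA-B and HLA-C were called. Against doxorubicin alone, the combination raised TAP1 from 15.2 ± 3.64 to 28.0 ± 1.53 CPM (SD, n = 4 and 3), a log2 fold change of 0.88 (SE 0.19, adjusted p = 0.0189). It was 1 of 8 members, where 0.66% of all genes tested were called, and it was lost in 4 of the 7 fits that left out a library (adjusted p up to 0.105).

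Doxorubicin alone in resistant tumours gave no call among the members or among all genes tested (0%), with 0 members at an unadjusted p under 0.05 in edgeR and 0 called by DESeq2. The members' log2 fold changes ran from -0.27 (TAP1) to 0.26 (NLRC5). Doxorubicin added to decitabine in resistant tumours, again a comparison made after the values had been seen, gave log2 fold changes from -0.12 (TAP2) to 0.27 (TAP1), with 0 calls in edgeR among the members and all genes, 0 members at an unadjusted p under 0.05 and 0 called by DESeq2. The interaction in resistant tumours gave 0 calls in the same 3 ways. Averaged over both lines and over tumours with and without decitabine, doxorubicin gave 0 calls among the members in edgeR, where 2.37% of all genes tested were called, with 4 members at an unadjusted p under 0.05. HLA-B had a log2 fold change of 0.35 (SE 0.11, adjusted p = 0.0717), HLA-E 0.29 (SE 0.09, adjusted p = 0.0668), HLA-C 0.27 (SE 0.09, adjusted p = 0.0988) and NLRC5 0.22 (adjusted p = 0.183). DESeq2 called HLA-B and HLA-E.

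The decitabine response was not shown to differ between the lines for any member. In edgeR 0 of 8 were called, where 3.32% of all genes tested were called, with 1 member at an unadjusted p under 0.05. That was TAPBP, at 0.55 higher in resistant tumours on the log2 scale (SE 0.18, adjusted p = 0.0635), which DESeq2 called. For HLA-B the difference was -0.37, with a 95% interval from -0.78 to 0.05.

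HLA-B was also set against B2M within each library, which removes the scaling. Parental vehicle libraries held 15.4 ± 2.43 HLA-B counts per 100 B2M counts (SD, n = 4), decitabine libraries 21.2 ± 2.05 (n = 4), doxorubicin libraries 17.2 ± 0.434 (n = 3) and combination libraries 28.8 ± 0.755 (n = 4). The combination libraries, at 28.2 to 29.7, lay above every other library of either line, and the parental decitabine libraries, at 18.4 to 23.0, lay above the vehicle libraries at 12.1 to 17.98. In resistant tumours the ratios were 17.9 ± 1.63 with vehicle (n = 4), 21.0 ± 2.49 with decitabine (n = 3), 20.5 ± 3.14 with doxorubicin (n = 4) and 22.3 ± 4.99 with the combination (n = 3), and the groups overlapped. HLA-C moved less by this measure, from 4.89 ± 0.504 to 6.24 ± 0.788 per 100 B2M counts between parental vehicle and combination (n = 4 and 4). HLA-E stood at 5.28 ± 0.537 and 5.25 ± 0.222 in the same groups. A ratio of this kind shows unequal change and not which of the genes moved.

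**Figure D3:**
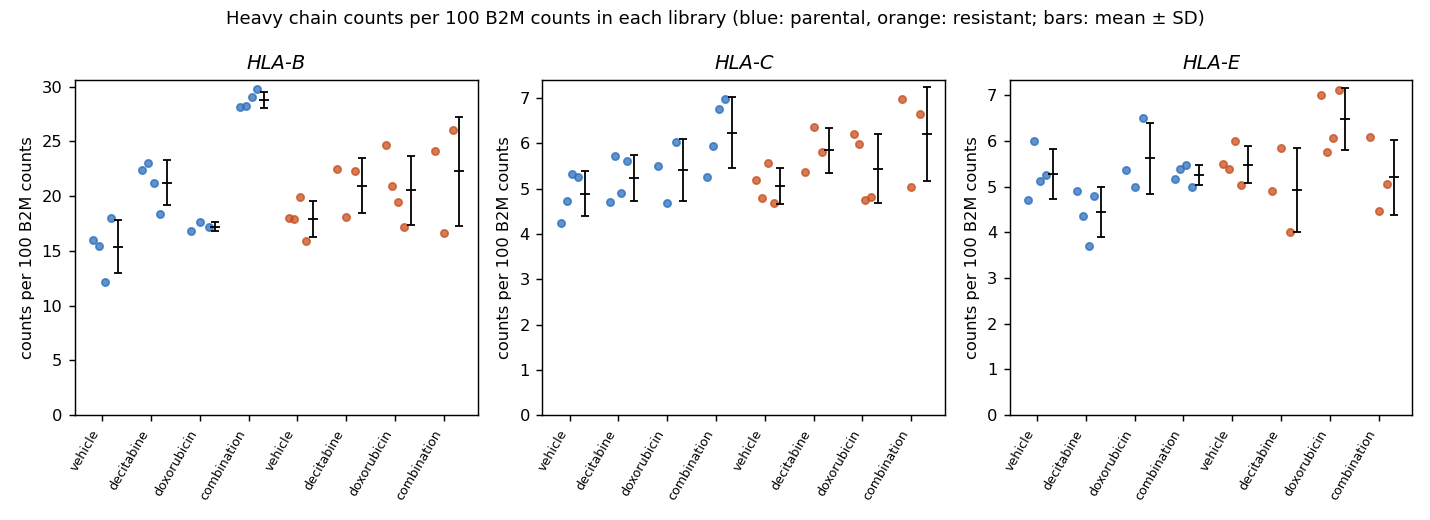
Counts of HLA-B, HLA-C and HLA-E per 100 B2M counts (linear axes from 0) in each library, with the mean ± SD of each group, for parental (blue) and resistant (orange) tumours. The 4 parental combination libraries of HLA-B sit between 28.2 and 29.7, above all other libraries.

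NLRC5, a member of the NLR family that activates class I promoters, was higher in resistant than in parental tumours under every treatment. Under vehicle it was 25.3 ± 2.34 against 16.2 ± 2.88 CPM (SD, n = 4 and 4), a log2 difference of 0.64 (SE 0.17, edgeR adjusted p = 0.00903), which held in each of the 8 fits that left out a library. Under doxorubicin the difference was 0.88 (SE 0.19, adjusted p = 0.0014), which held in each of 7 such fits. Under decitabine it was 0.62 (SE 0.18, adjusted p = 0.012), and without resistant decitabine 2 it was 0.36 (adjusted p = 0.195). Under the combination it was 0.57 (SE 0.18, adjusted p = 0.0222), and it was lost without parental combination 2 (adjusted p = 0.0642) or resistant combination 1 (0.32, adjusted p = 0.264).

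Some markers of other cell types were also called between the lines. Of the 7 leukocyte markers tested, LCP1, which encodes the actin-bundling protein L-plastin, was higher in resistant tumours under every treatment (log2 5.35 under vehicle and 4.02, 4.86 and 4.44 under decitabine, doxorubicin and the combination), at 110.3 ± 10.8 against 2.68 ± 1.78 CPM under vehicle (SD, n = 4 and 4). CD8A was higher under every treatment as well (1.82, 2.27, 2.79 and 2.29 in the same order), and FCER1G by 2.75 under decitabine. Of the same 7 markers, 1 was lower under vehicle, 1 under doxorubicin, and 0 under decitabine or the combination. The endothelial marker PECAM1 was lower under vehicle and under doxorubicin (-1.15 in both). Of the 5 endothelial markers tested, 1 was lower under vehicle and 2 under doxorubicin, with 0 higher. Under decitabine and under the combination, 1 was higher in each and 0 lower. Of all genes tested, 20.1% were called between the lines under vehicle, 26.8% under decitabine, 13.9% under doxorubicin and 21.9% under the combination. For the endothelial markers, 1 of 5 under vehicle, decitabine or the combination is thus near the share of all genes. The marker counts are small. The summed level of the 16 leukocyte markers, which leave out LCP1, overlapped between the lines under vehicle, at 28.7 to 38.8 CPM in resistant and 26.7 to 44.2 CPM in parental tumours. The part of these cells in the line differences was not tested.

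Under vehicle 2 of 8 members were called between the lines, where 20.1% of all genes tested were. The other was TAPBP, at 154 ± 21.4 CPM in resistant and 232 ± 43.8 CPM in parental tumours (SD, n = 4 and 4), a log2 difference of -0.59 (SE 0.17, adjusted p = 0.0116), which was lost without parental vehicle 3 or resistant vehicle 1 (adjusted p = 0.0698 and 0.0579). TAP1 was at 0.47 (adjusted p = 0.0787) and HLA-B at 0.38 (adjusted p = 0.19). Under doxorubicin NLRC5 was the 1 call of 8, where 13.9% of all genes tested were called, and under the combination likewise, where 21.9% were.

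Under decitabine 4 of 8 members were higher in resistant tumours and none lower, where 26.8% of all genes tested were called in either direction and 13.7% were higher. Beside NLRC5 these were HLA-C (log2 0.53, SE 0.19, adjusted p = 0.0362), HLA-E (0.51, SE 0.18, adjusted p = 0.0344) and B2M (0.37, SE 0.12, adjusted p = 0.0272). HLA-C and B2M did not overlap between the lines, and HLA-E did. Only B2M of these was still called without the 2 libraries that stood apart, and HLA-C was lost in 6, HLA-E in 5 and B2M in 4 of the 7 fits that left out a library.

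Within a line, NLRC5 was set against the other 7 members tested by Pearson and Spearman correlation of log2 CPM, with 100000 permutations and Benjamini-Hochberg adjustment over the 14 relations. In the 15 parental libraries NLRC5 went with TAP1 (r = 0.73, adjusted p = 0.0147; rho = 0.64), HLA-B (r = 0.71, adjusted p = 0.0147; rho = 0.65), HLA-C (r = 0.66, adjusted p = 0.0243; rho = 0.59) and B2M (r = 0.62, adjusted p = 0.0339; rho = 0.60), and all 4 rho values had an adjusted permutation p of 0.069. After group means were subtracted, r was 0.55, 0.13, 0.27 and 0.30 in the same order, and none passed. Without the 2 libraries farthest from the NLRC5 median, r was 0.62, 0.62, 0.44 and 0.52 in the same order, and none passed. In the 14 resistant libraries NLRC5 went with TAPBP (r = 0.75, permutation adjusted p = 0.0147; rho = 0.46, adjusted p = 0.197) and HLA-E (r = 0.61, adjusted p = 0.0456; rho = 0.60, adjusted p = 0.069). The relation with TAPBP was 0.91 after group means were subtracted and 0.33 without the 2 farthest libraries, on which it rests. The relation with HLA-E was 0.60 and 0.54 under the same settings, and neither passed. With the remaining members r in resistant libraries was 0.22 (HLA-B), 0.41 (HLA-C), 0.27 (B2M), -0.07 (TAP1) and -0.55 (TAP2). None of these passed, with TAP2 at a permutation adjusted p of 0.0799. In parental libraries HLA-E (r = 0.36), TAP2 (0.30) and TAPBP (0.30) did not pass either. Values of a library share its scaling factor.

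**Figure D4:**
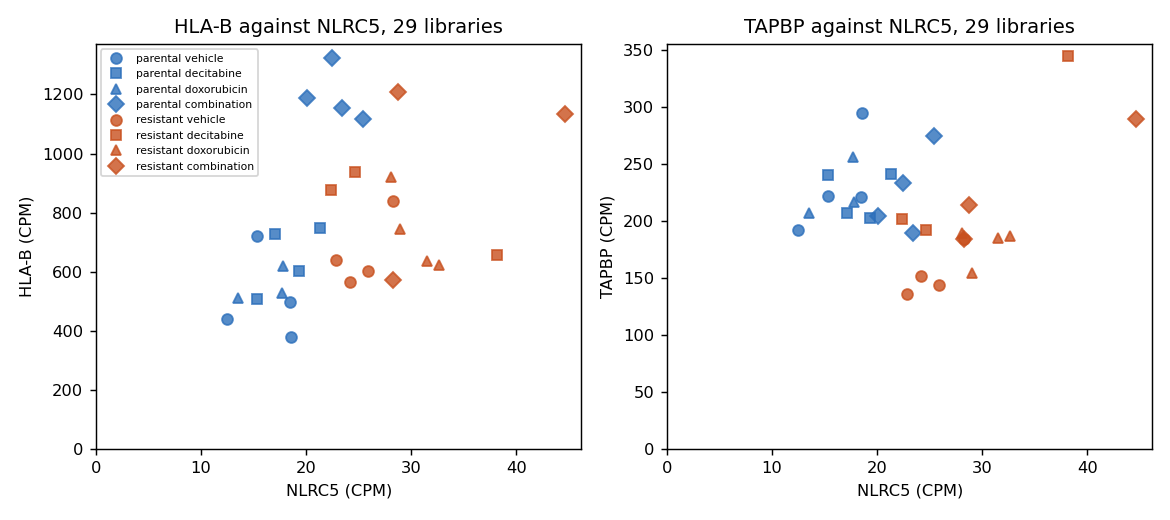
HLA-B (left) and TAPBP (right) against NLRC5 in CPM (linear axes from 0), with a point per library and a shape per treatment. Resistant libraries (orange) lie to the right of parental ones (blue) of the same treatment, and resistant decitabine 2, at 345 CPM of TAPBP and 38.1 CPM of NLRC5, lies at the upper right.

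HLA-F, a non-classical heavy chain, had 32 counts in all 29 libraries and at most 4 in any. The 14 libraries with decitabine held 22 of them (0.329 CPM, exact 95% Poisson interval 0.206 to 0.497, counting error only) and the 15 without it held 10 (0.150 CPM, 0.0721 to 0.277). The intervals overlap, and the difference was not tested in the main fit, which HLA-F did not enter. HLA-G, another non-classical heavy chain, had 3 counts.

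Genes upstream and downstream of the members were taken from lists of the pathway and counted under the average decitabine effect. There 6.8% of all genes tested were called in either direction and 3.96% were higher. Of 20 interferon-stimulated genes 19 were tested, 13 were higher and 0 lower, with a median log2 fold change of 0.64. DDX60, an RNA helicase-like antiviral protein, rose by 0.78 (SE 0.10, edgeR adjusted p = 8.16e-06), IFI44 by 0.71 (SE 0.09, adjusted p = 9.9e-06) and PARP14 by 0.63 (SE 0.09, adjusted p = 2.8e-05). Of 18 regulators of class I transcription, all tested, 2 were higher and 0 lower, and the median of the list was -0.0075. Among them IRF1, a factor that binds interferon response elements, rose by 0.46 (SE 0.10, adjusted p = 0.00293).

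Of 10 proteasome genes 9 were tested and 1 was higher: PSMB9, an immunoproteasome subunit encoded beside TAP1 (0.43, SE 0.11, adjusted p = 0.0173). Of 10 genes of peptide trimming and folding 1 was higher, the peptidase ERAP1 (0.34, SE 0.11, adjusted p = 0.0486). Of 16 interferon, receptor and kinase genes 9 were tested and 1 was higher, the receptor chain IFNAR2 (0.35, SE 0.09, adjusted p = 0.0119). Of 15 other class I-like genes 8 were tested and 1 was higher, the IgG receptor FCGRT (0.43, SE 0.12, adjusted p = 0.0305). Among 7 genes whose products meet class I receptors or T cells, 4 were tested and 1 was lower. It was CD274, which encodes PD-L1 (-0.38, SE 0.11, edgeR adjusted p = 0.028). Each of these lists gave 1 call. That is a small count where 6.8% of all genes tested were called in either direction.

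**Figure D5:**
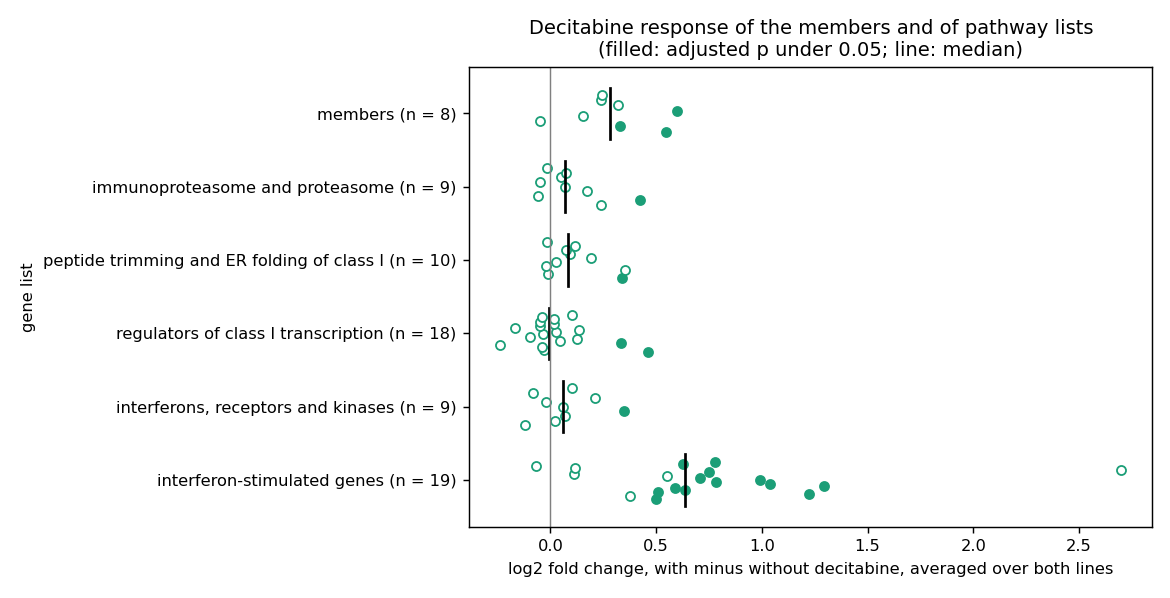
Log2 fold change with minus without decitabine, averaged over both lines, of each gene tested (point) in 6 lists, with filled points for an adjusted p under 0.05 and a line at the median. The interferon-stimulated genes have a median of 0.64 with 13 of 19 filled, and the members a median of 0.28 with 3 of 8 filled.

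Some markers of other cells were called under the same comparison, where 6.8% of all genes tested were called in either direction. Of 17 leukocyte markers 7 were tested and 1 was higher, FCER1G (log2 2.01, SE 0.35, adjusted p = 0.00045), which stood at 4.08 ± 2.58 CPM in resistant decitabine and 0.295 ± 0.308 CPM in resistant vehicle tumours (SD, n = 3 and 4). Of 7 endothelial markers 5 were tested and 3 were higher, ENG (0.58), PECAM1 (0.47) and TEK (1.02), with adjusted p of 0.00326, 0.0186 and 0.0222. Of 7 fibroblast markers 5 were tested and none was called, with a median log2 fold change of 0.19 and 0.09 for COL1A1 (adjusted p = 0.906). Of 10 breast carcinoma markers 8 were tested and KRT19 was lower (-0.32, adjusted p = 0.00374). The summed level of the 16 leukocyte markers, most of it CD68, was 36.0 to 45.5 CPM in resistant decitabine libraries. It was 38.4 to 47.2 CPM in resistant combination and 28.7 to 38.8 CPM in resistant vehicle libraries. The part of these cells in the members' values was not tested.

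Between the lines under vehicle, the same lists did not move one way. Of the 9 proteasome genes 3 were higher in resistant tumours, with PSMB9 at 29.4 ± 4.78 against 14.4 ± 2.65 CPM (log2 1.03, SE 0.22, adjusted p = 0.00112). Of the 10 trimming and folding genes 4 were lower, among them the chaperones PDIA3 (-0.78, adjusted p = 0.000389) and CALR (-0.47, adjusted p = 0.0071). Of the 19 interferon-stimulated genes 4 were lower and 1 was higher, with IFI44 at -1.30 (SE 0.18, adjusted p = 8.29e-06). PARP14 stood at -0.86 (adjusted p = 0.000537). The median log2 difference of the list was -0.51 under vehicle, and 20.1% of all genes tested were called there, so that 5 of 19 is near the share of all genes and 3 of 9 and 4 of 10 are small counts. Under the other treatments the median log2 difference of the interferon-stimulated genes was positive. In resistant tumours 6 of the 19 genes were higher and 2 lower under decitabine (median 0.36), where 26.8% of all genes tested were called. Under doxorubicin 6 were higher and 1 lower (median 0.56), where 13.9% were called. Under the combination 3 were higher and 2 lower (median 0.40), a count near the 21.9% called over all genes.

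To find the genes whose pattern was most like that of the members, the standardised log2 CPM of the 8 members tested were averaged per library, each line was centred, and 10260 other genes with a mean of at least 5 CPM were ranked by Pearson r over the 29 libraries. The highest was TNFSF10, the death ligand TRAIL (r = 0.88), which stood at 4.59, 7.76, 5.72 and 16.5 CPM on average in parental vehicle, decitabine, doxorubicin and combination tumours. It was followed by TCN1 (0.86), AQP1 (0.86), MFSD12 (0.84), CSPG4 (0.84), BBC3 (0.83), TXNIP (0.83), NINJ1 (0.83), OAS1 (0.82) and NFE4 (0.82). Among the pathway genes, IFIT1 ranked 11th with 0.80 and IRF1 had 0.79. Of the members, HLA-B (0.85), HLA-C (0.82) and B2M (0.81) lay closest to the average of the others, followed by NLRC5 (0.63), TAP1 (0.49), HLA-E (0.48), TAPBP (0.29) and TAP2 (-0.02). These values are descriptions over libraries that share treatments, and carry no test.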

How the data were processed

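Poly(A) RNA of 29 tumours was sequenced as 3′ tags (QuantSeq forward kit), per the labels' protocols. The authors deposited whole-number, unnormalised counts for each gene. The authors trimmed, aligned and counted the reads with tools that include cutadapt, STAR 2.7.3a and featureCounts on GRCh38.p10, and also used DESeq2, per the submitters' processing notes. Annotation release, strand setting and handling of host reads: not given in the sources used here.

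Genes were filtered with filterByExpr (minimum count 10, total 15) and scaled with TMM factors. All 29 libraries entered 1 robust quasi-likelihood fit in edgeR 4.0.16 (R 4.3.3) with 8 group means. Benjamini-Hochberg adjustment ran over 13495 genes within each of 19 comparisons, 4 of which (doxorubicin added to decitabine and the interaction, per line) were added after values had been seen. The threshold was an adjusted p of 0.05. Where DESeq2 (1.42.0) is not named, adjusted p-values of genes come from edgeR. The steps were tested on simulated data. Groups came from sample titles. Libraries of the same group always differed by more than counting noise (chi-square at least 3.94 per degree of freedom).

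The members and lists were chosen with earlier results of these data known. All 9 members are named, and from each list up to 3 called genes with the smallest adjusted p, or the most abundant where none was called. Alternatives were other scaling, filters and tools, fits of the compared groups alone, a replicate block and leaving out libraries. 1 gene of the pathway lists is not reported here.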

Additional observations from a re-analysis of the deposited data

Results flagged for a closer look

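In each of the 5 groups with 4 libraries, the highest and the lowest library of each of the 8 genes tested was set against its group by Dixon's test at the 95% level, which chance passes in about 1 of 20 groups. Of these 40 checks, 1 passed. TAPBP in resistant doxorubicin 2 stood at 154.06 CPM, below the other 3 libraries of its group, which held 185 to 189 CPM.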

How the results depend on the processing

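The counts of members called that moved by over 1.5 times are given here, and the cause was not tested for any of them. DESeq2 called 2 members for decitabine in parental tumours, 2 for the average doxorubicin effect and 1 for the line difference in the decitabine effect, where edgeR called 0 in each. With DESeq2 size factors decitabine in parental tumours gave 1. The fit without the low-count filter also held HLA-F, so its counts are out of 9 genes. Without the low-count filter the counts were 2 for decitabine in parental tumours, 2 for decitabine added to doxorubicin in parental tumours, 3 for the combination in resistant tumours, 5 for the average decitabine effect, 3 for the average doxorubicin effect, 1 for the line difference and 1 for the parental interaction. Fitting only the compared groups gave 1 between the lines under decitabine, 2 under doxorubicin, 0 for decitabine in resistant tumours and 0 for decitabine added to doxorubicin there. Without parental vehicle 3 and resistant decitabine 2, a choice made after seeing the data, the counts were 1 between the lines under decitabine, 1 for decitabine in parental tumours and 0 for decitabine in resistant tumours. Leaving out 1 library at a time, counts ran from 1 to 3 for the lines under vehicle, 1 to 3 for the lines under decitabine, 0 to 1 for the lines under the combination, 0 to 2 for decitabine in parental tumours, 1 to 2 for the combination in parental tumours, 0 to 1 for decitabine added to doxorubicin in parental tumours, 0 to 1 for decitabine in resistant tumours, 0 to 2 for the combination in resistant tumours, 0 to 1 for decitabine added to doxorubicin in resistant tumours, 0 to 3 for the average doxorubicin effect, 0 to 1 for the line difference in decitabine effect, 0 to 4 for doxorubicin added to decitabine in parental. Of 2906 alternatives for single members and correlations, 132 changed sign, none of a result called under either setting. After group means were subtracted, NLRC5 had an r of 0.13 with HLA-B, 0.27 with HLA-C, 0.30 with B2M and 0.55 with TAP1 in parental and -0.0095 with HLA-B and 0.60 with HLA-E in resistant tumours. Without the 2 libraries farthest from its median, r was 0.62 with HLA-B, 0.44 with HLA-C, 0.52 with B2M, 0.62 with TAP1 and -0.080 with TAPBP in parental tumours, and -0.041 with HLA-B, -0.073 with HLA-C, 0.54 with HLA-E, -0.11 with B2M and 0.33 with TAPBP in resistant tumours.

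Without the 2 libraries that stood apart, the uncalled log2 values that changed sign were -0.18 for TAPBP (line under decitabine), 0.072 for TAPBP (decitabine in parental tumours), 0.10 for TAPBP (doxorubicin in parental tumours), 0.091 for TAPBP (combination in parental tumours), -0.11 for NLRC5 (decitabine in resistant tumours), -0.082 for TAPBP (decitabine by doxorubicin interaction in parental tumours), 0.22 for TAPBP (doxorubicin added to decitabine in resistant tumours), -0.044 for HLA-B (decitabine by doxorubicin interaction in resistant tumours), 0.0023 for TAPBP (decitabine by doxorubicin interaction in resistant tumours). With upper quartile scaling, the uncalled log2 values that changed sign were -0.0029 for NLRC5 (doxorubicin in parental tumours), 0.012 for TAPBP (decitabine added to doxorubicin in parental tumours), -0.020 for NLRC5 (decitabine by doxorubicin interaction in resistant tumours). With the replicate number as a block, the uncalled log2 values that changed sign were -0.053 for TAP2 (combination in resistant tumours), 0.011 for HLA-E (line difference in decitabine effect), -0.024 for TAP1 (line difference in decitabine effect). The block changed no count of calls by over 1.5 times and no call of a single member. Same-numbered libraries did not deviate together (94 pairs, r from -0.46 to 0.43, 27 over 0.1), so the numbers were not taken as pairs.

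Over the fits that left out 1 library, these uncalled log2 values crossed 0. Between the lines under decitabine the ranges were TAP1 -0.077 to 0.35, TAPBP -0.18 to 0.29. Between the lines under doxorubicin the ranges were TAP1 -0.20 to 0.050, TAP2 -0.40 to 0.20. Between the lines under the combination the ranges were HLA-C -0.11 to 0.30, HLA-E -0.17 to 0.27, B2M -0.044 to 0.17, TAP2 -0.38 to 0.014, TAPBP -0.18 to 0.16. For decitabine in parental tumours the ranges were HLA-C -0.14 to 0.13, B2M -0.17 to 0.0094, TAPBP -0.12 to 0.085. For doxorubicin in parental tumours the ranges were HLA-C -0.027 to 0.24, HLA-E -0.065 to 0.14, B2M -0.098 to 0.073, TAP2 -0.096 to 0.52, TAPBP -0.13 to 0.10, NLRC5 -0.079 to 0.13. For the combination in parental tumours the ranges were TAPBP -0.15 to 0.079. For decitabine added to doxorubicin in parental tumours the ranges were TAP2 -0.11 to 0.50, TAPBP -0.12 to 0.088. For decitabine in resistant tumours the ranges were HLA-E -0.16 to 0.060, TAP2 -0.15 to 0.39, NLRC5 -0.11 to 0.30. For doxorubicin in resistant tumours the ranges were HLA-C -0.048 to 0.19, B2M -0.087 to 0.034, TAP2 -0.21 to 0.033. For the combination in resistant tumours the ranges were HLA-E -0.061 to 0.37, TAP2 -0.16 to 0.14. For decitabine added to doxorubicin in resistant tumours the ranges were HLA-E -0.25 to 0.17, TAP2 -0.074 to 0.19, NLRC5 -0.088 to 0.27. For the average decitabine effect the ranges were HLA-E -0.10 to 0.0044. For the average doxorubicin effect the ranges were TAPBP -0.026 to 0.10. For the line difference in decitabine effect the ranges were HLA-E -0.13 to 0.078, B2M -0.022 to 0.10, TAP1 -0.068 to 0.15. For doxorubicin added to decitabine in parental tumours the ranges were TAP1 -0.072 to 0.14, TAPBP -0.11 to 0.082. For decitabine by doxorubicin interaction in parental tumours the ranges were TAPBP -0.11 to 0.15. For doxorubicin added to decitabine in resistant tumours the ranges were TAP2 -0.36 to 0.18, TAPBP -0.30 to 0.22. For decitabine by doxorubicin interaction in resistant tumours the ranges were HLA-B -0.092 to 0.36, HLA-E -0.17 to 0.25, TAP2 -0.27 to 0.26, TAPBP -0.52 to 0.0022, NLRC5 -0.24 to 0.27. HLA-F, with 32 counts in all, did not pass the low-count filter and was not tested in the main fit.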
